A study of Mus musculus with 6 samples.

Results

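The genes described here encode the NF-kB transcription factors and the IkB proteins that hold them in check. They were chosen by name: 10 genes, of which 5 encode Rel family subunits (Rela, Relb, Rel, Nfkb1 and Nfkb2) and 5 encode IkB family inhibitors (Nfkbia, Nfkbib, Nfkbid, Nfkbie and Nfkbiz). The deposited table holds 57180 genes, of which 13260 had enough counts to be tested, and all 10 members were among those tested. RNA was sequenced from bone marrow-derived macrophages of wild-type (WT) mice aged 6 to 8 weeks, which are marrow cells grown into macrophages over 7 days with M-CSF (20 ng/mL). Cultures of both groups then received IL-4 (20 ng/mL) for 24 h, either alone (IL-4) or together with the sensory neuropeptide CGRP (IL-4+CGRP), with 3 libraries in each group. No group without IL-4 and no group given CGRP alone entered the comparison, so what is compared is CGRP on top of IL-4. The labels do not say whether replicates are separate cultures or animals. The p-values therefore describe the spread among these libraries, which may be technical.

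NF-kB subunits bind DNA as dimers through a shared Rel homology domain. In resting cells IkB proteins, which are built of ankyrin repeats, mask the dimers and keep most of them in the cytoplasm. When IkB kinase phosphorylates the classical inhibitors they are destroyed, the dimers enter the nucleus, and inhibitor genes are among the first to be transcribed, which closes a feedback loop. Rela, Relb and Rel carry activation domains. Nfkb1 and Nfkb2 encode precursors whose ankyrin repeats act as an IkB until they are processed away. In macrophages the pathway drives the response to microbial products and inflammatory cytokines. The annotation in the deposited table gave the Rel homology domain to the 5 subunits and to 9 tested genes in all, the other 4 being the NFAT family genes Nfat5, Nfatc1, Nfatc2 and Nfatc3. It gave ankyrin repeats to 7 members, namely the 5 inhibitors and the precursors Nfkb1 and Nfkb2. RNA level was the only quantity measured: the amount, processing and location of the proteins were not.

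Promoter stretches that hold an NF-kB (kB) motif are shown because they mark which members carry letters of the family's own binding motif near the start site. RefSeq promoter windows (build GRCm38.p6, 250 bases before to 50 after the start site) were matched for 7 of the 10 members, in 11 windows. The motifs searched on both strands were a short kB motif of 9 letters, GGGNNTTCC, a long kB motif of 10 letters with 1 more T before the final CC, and the cAMP response element TGACGTCA. They were chosen after these windows had been searched with several patterns, and matches of the 2 kB motifs can overlap. Each stretch is 30 bases, read 5′ to 3′ on the strand of the gene. Capitals mark a single match or a run of overlapping matches. Bases of a neighbouring match that reach into the same stretch are in lower case. The last Nfkbid stretch is shown for TGACGTCA and not for a kB motif.
Nfkbia, chr12:55492657-55492686, minus strand: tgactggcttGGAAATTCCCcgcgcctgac
Rel, chr11:23771041-23771070, minus strand: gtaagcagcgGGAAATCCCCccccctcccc
Nfkb2, chr19:46304688-46304717, plus strand: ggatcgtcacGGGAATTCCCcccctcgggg
Nfkb2, chr19:46304707-46304736, plus strand: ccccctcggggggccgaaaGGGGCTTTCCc
Nfkb2, chr19:46305695-46305724, plus strand: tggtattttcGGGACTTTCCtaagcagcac
Nfkbie, chr17:45555584-45555613, plus strand: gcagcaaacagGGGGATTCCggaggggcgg
Nfkbid, chr7:30422169-30422198, plus strand: agccccgccctGGGACTTCCcagagcacca
Nfkbid, chr7:30422214-30422243, plus strand: cgggccgaacaGGAATTCCCcgtgcgcggg
Nfkbid, chr7:30422230-30422259, plus strand: tccccgtgcgcGGGGATTCCacgggcgccg
Nfkbid, chr7:30422344-30422373, plus strand: cgttagcgccgTGACGTCAgcgcgcggcgt

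The long kB motif was present in windows of 3 of the 7 members (Rel, Nfkbia and Nfkb2), against 1.89% of the 27025 genes with a window. Counted by window it was in 5 of the members' 11, against 1.63% of all 32851. Overlapping windows of Nfkb2 hold the same site at chr19:46305705, so this window count includes that site more than once. The short kB motif was present in 4 (Rel, Nfkb2, Nfkbie and Nfkbid), against 6.58% of genes, and in 4 of 11 member windows, against 5.82% of all windows. Together, 5 of the 7 members had a match of at least one kB motif, against 7.93% of genes; Rela and Nfkbib had none in these windows. TGACGTCA, a binding element of CREB, was found in Nfkbid alone among the 7 members, against 2.03% of genes, and in 1 of 11 member windows, against 1.79% of all windows. Nfkbid and Nfkb2 have 3 windows each, which gives them more sequence to match than a gene with 1. On the genome, the matches in Nfkbia, Nfkbie and Nfkbid lay outside annotated exons (GENCODE M21), whereas the Nfkb2 windows lay wholly or largely within annotated exons. The Nfkbia motif lay between positions -29 and -20 from the start site. The 250 bases before that start site (chr12:55492648-55492897, minus strand) are given to show the setting of the motif in the gene of IkB alpha.
Nfkbia promoter: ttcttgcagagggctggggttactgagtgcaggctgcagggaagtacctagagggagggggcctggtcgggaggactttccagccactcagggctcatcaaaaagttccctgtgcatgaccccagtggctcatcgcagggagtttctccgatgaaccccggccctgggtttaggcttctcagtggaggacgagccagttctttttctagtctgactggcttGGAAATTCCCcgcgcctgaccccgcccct
A match describes letters only; binding at these sites was not measured.

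Library totals ran from 20088895 to 24060444 counts. IL-4+CGRP replicate 2 stood apart from its group, at -0.17 on the first principal component (37.6% of variance) against 22.0 and 27.0 for the other IL-4+CGRP libraries and -26.0 to -11.2 for the IL-4 libraries, so calls that leaving it out adds among the genes named are also given. This library was picked because it lay nearer to the IL-4 libraries, so calls gained without it are not independent evidence. The same limit holds for calls gained when IL-4 replicate 1 was left out as well, a fit that called 16.9% of all tested genes. All 10 macrophage markers were tested, from 24.8 CPM (Cd14) to 4167 CPM (Lyz2) in IL-4, with summed levels of 15034 to 15349 CPM (counts relative to a common library total, after TMM scaling) in IL-4 and 15209 to 15759 CPM in IL-4+CGRP; 2 of the 10 rose (Cd14 and Itgam). Of the neutrophil list, 7 of 10 markers were tested and 0 passed the test, with sums of 38.2 to 47.1 and 35.4 to 46.2 CPM and the defining gene Ly6g at 0 counts in every library. Of the dendritic cell list 2 of 8 tested markers were lower and 1 was higher, with sums of 449 to 458 and 365 to 383 CPM. The T and NK cell list had 0 calls among 8 tested markers, with sums of 82.2 to 91.5 and 90.3 to 94.2 CPM. The B cell list had 0 calls among 7 tested markers, with sums of 269 to 282 and 284 to 317 CPM. Over all tested genes 3.85% were called. Of 9 tested stromal and endothelial markers 2 rose (Pecam1 and Kdr), with sums of 152 to 166 and 199 to 213 CPM. Of 4 tested mast cell and basophil markers 0 passed by edgeR (1 at an unadjusted p under 0.05), with sums of 11.8 to 13.0 and 9.28 to 11.1 CPM and Mcpt4 at 0 in every library. The part of these lists in the results on target genes was not tested.

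No member passed the test between IL-4+CGRP and IL-4. By the edgeR quasi-likelihood test (Benjamini-Hochberg adjusted p under 0.05 over every gene tested) 0 of 10 members were called, against 3.85% of all tested genes (511 of 13260; 2.32% higher and 1.54% lower). DESeq2 and limma-voom also called 0. At an unadjusted p under 0.05, 1 of 10 members passed (Nfkb2, higher), against 15.8% of all tested genes, or 8.61% as higher. The groups did not overlap for 2 members, Nfkb2 and Nfkbie, both with the higher values in IL-4+CGRP; groups did not overlap for 21.0% of all tested genes, 11.1% as higher and 9.92% as lower. With 10 members, each of these counts is near or under its background. In cultures sequenced in bulk, fewer cells expressing a gene and less RNA per cell cannot be told apart.

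**Figure D1:**
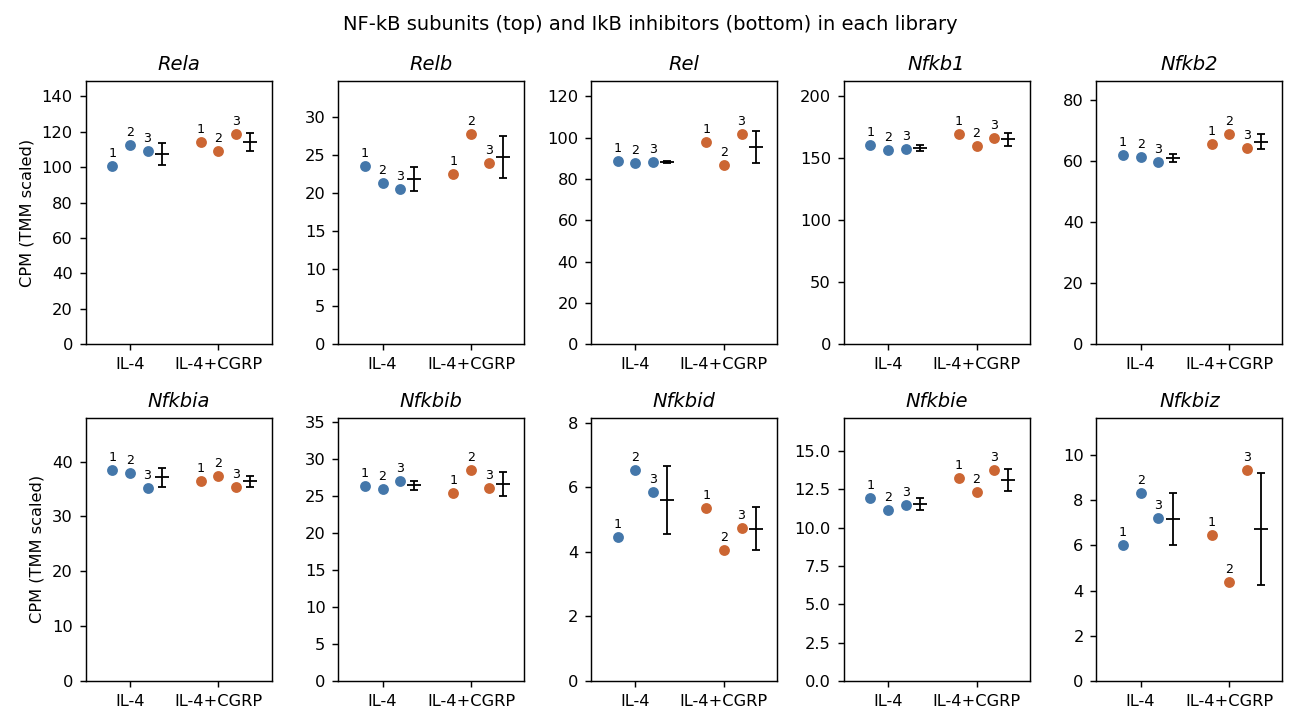
Level of each of the 10 members in every library, in CPM on a linear axis from 0 (a different scale in each panel); numbers are replicates, and bars are the group mean ± SD (n = 3). The groups overlap in every panel except Nfkb2 and Nfkbie, where all IL-4+CGRP libraries lie above all IL-4 libraries by a small margin.

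Among the subunits with activation domains, Rela (ENSMUSG00000024927), the partner in the most common NF-kB dimer, measured 100.4, 113 and 109 CPM in IL-4 replicates 1 to 3 and 114, 109 and 119 CPM in IL-4+CGRP replicates 1 to 3. The groups overlapped because IL-4 replicates 2 and 3 lay above IL-4+CGRP replicate 2. The fold change was 1.06 (95% interval 0.969 to 1.16), or 0.09 ± 0.06 on the log2 scale (SE), and the edgeR adjusted p = 0.54. Rel (ENSMUSG00000020275), which encodes c-Rel, measured 88.7, 87.8 and 88.3 CPM in IL-4, a spread of 0.51% of the mean. In IL-4+CGRP it measured 97.8, 86.9 and 102 CPM: replicates 1 and 3 lay above every IL-4 library and replicate 2 lay below them all. Its fold change was 1.08 (0.983 to 1.19), with an edgeR adjusted p = 0.42. Without IL-4+CGRP replicate 2, Rel passed the test as higher, by 0.18 ± 0.05 on the log2 scale (SE; edgeR adjusted p = 0.027), and it was the 1 member of 10 called in that fit, where 13.8% of all tested genes were called. Over the 16 alternatives the adjusted p of Rel lay between 0.0070 and 0.86. The lower end came from the fit without both IL-4+CGRP replicate 2 and IL-4 replicate 1.

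Relb (ENSMUSG00000002983), which pairs with processed Nfkb2 in the noncanonical pathway, measured 23.6, 21.3 and 20.5 CPM in IL-4 and 22.5, 27.8 and 24.0 CPM in IL-4+CGRP. The highest value was that of IL-4+CGRP replicate 2, the library in which Rel was lowest, and IL-4+CGRP replicate 1 fell within the range of IL-4. Its fold change of 1.14 had an interval of 0.984 to 1.31 and an edgeR adjusted p = 0.38. Without IL-4+CGRP replicate 2 the log2 fold change of Relb was 0.09, against 0.19 with all libraries.

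Of the precursor genes, Nfkb1 (ENSMUSG00000028163) measured 161, 157 and 158 CPM in IL-4 and 169.8, 159.5 and 167 CPM in IL-4+CGRP. IL-4+CGRP replicate 2 lay between the IL-4 values, and the other libraries of that group lay above them. The fold change was 1.04 (0.967 to 1.13), with an edgeR adjusted p = 0.61. Nfkb1 overlaps Gm43430 on the same strand in GENCODE M21, so that strand could not separate their reads. Nfkb2 (ENSMUSG00000025225), the target of noncanonical processing, measured 62.1, 61.4 and 59.8 CPM in IL-4 and 65.9, 69.1 and 64.3 CPM in IL-4+CGRP. All IL-4+CGRP libraries were above all IL-4 libraries, by 1.09-fold in the fit (1.001 to 1.18). Its edgeR p was 0.048 before adjustment and 0.31 after it, and the adjusted p lay between 0.20 and 0.67 over the 16 alternatives. Nfkb2 was the 1 member whose deposited counts were not whole numbers, and it overlaps Psd and AC114539.1 on the opposite strand in GENCODE M21, and whether the counting used strand is not given in the sources used here.

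**Figure D2:**
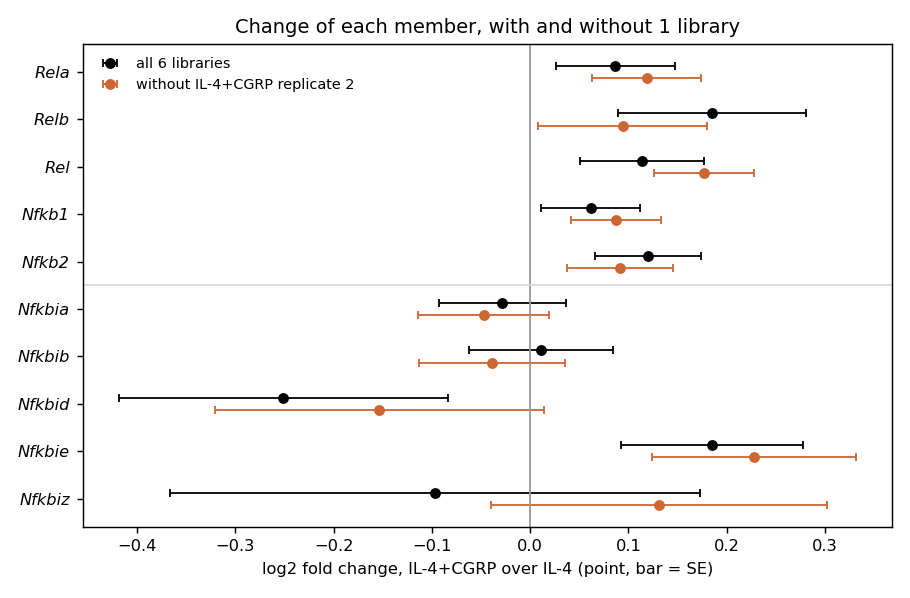
Log2 fold change of each member (IL-4+CGRP over IL-4; bars are SE of the edgeR fit), with all 6 libraries (black) and without IL-4+CGRP replicate 2 (orange); the grey line divides subunits from inhibitors. The 5 subunits lie above 0 in both fits, between 0.06 and 0.19, while the inhibitors lie on both sides and Nfkbib and Nfkbiz change side.

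Of the classical inhibitors, which are degraded to release the dimers, Nfkbia (ENSMUSG00000021025; IkB alpha) measured 38.4, 37.9 and 35.2 CPM in IL-4 and 36.4, 37.4 and 35.4 CPM in IL-4+CGRP. Every IL-4+CGRP value lay inside the range of IL-4. Its fold change was 0.981 (0.889 to 1.08), with an edgeR adjusted p = 0.87. Nfkbib (ENSMUSG00000030595; IkB beta) measured 26.3, 25.9 and 27.0 CPM in IL-4 and 25.3, 28.4 and 26.0 CPM in IL-4+CGRP, with the highest value again in IL-4+CGRP replicate 2. Its fold change was 1.01 (0.902 to 1.13), with an edgeR adjusted p = 0.96. It overlaps Sirt2 and Ccer2 on the opposite strand. Nfkbie (ENSMUSG00000023947; IkB epsilon) measured 11.9, 11.2 and 11.5 CPM in IL-4 and 13.2, 12.3 and 13.7 CPM in IL-4+CGRP. The groups did not overlap, and the gap between the nearest libraries, 11.9 and 12.3 CPM, was smaller than the SD of IL-4+CGRP (0.729 CPM). The fold change was 1.14 (0.988 to 1.31), with an edgeR adjusted p = 0.37.

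The nuclear IkB proteins bind NF-kB dimers on DNA and tune transcription rather than hold dimers in the cytoplasm. Their genes had the lowest RNA levels of the members and varied most between libraries. Nfkbid (ENSMUSG00000036931; IkB NS) measured 4.45, 6.52 and 5.84 CPM in IL-4 and 5.36, 4.04 and 4.73 CPM in IL-4+CGRP. Its lowest values were in IL-4 replicate 1 and IL-4+CGRP replicate 2, so the groups overlapped. The fit gave 1.19-fold lower in IL-4+CGRP (fold change 0.840, 0.652 to 1.08; edgeR adjusted p = 0.52). Nfkbiz (ENSMUSG00000035356; IkB zeta), which is needed for a set of secondary response genes, measured 6.02, 8.31 and 7.21 CPM in IL-4 and 6.48, 4.36 and 9.33 CPM in IL-4+CGRP, so that both the highest and the lowest value came from IL-4+CGRP. Its coefficient of variation in IL-4+CGRP was 37.1%, against 8.08% from counting error at its mean count. The fold change was 0.935, and its interval, from a fall to 0.5999-fold to a rise to 1.46-fold, was the widest of the 10 members (edgeR adjusted p = 0.90).

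The intervals bound what these data leave room for. For Rela, Rel, Nfkb1, Nfkb2, Nfkbia and Nfkbib the 95% interval lay between 0.889-fold and 1.19-fold. For Relb and Nfkbie its upper end reached 1.31-fold. The fitted log2 fold change was above 0 for all 5 subunits (0.06 to 0.19) and for 2 of the 5 inhibitors, against 49.2% of all tested genes. The median was 0.07 over the 10 members and -0.0042 over all tested genes. In each of the 16 alternatives for scaling, filter, tool, block or omitted library, all 5 subunits stayed above 0; these settings reuse the same libraries and no subunit passed in the fit with all 6 libraries.

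Levels of different genes were compared as CPM per kilobase of the gene length in the deposited table. In IL-4 the order of the mean levels was Nfkb1 (52.7), Rela (39.5), Nfkbia (23.5), Nfkbib (21.2), Nfkb2 (20.5), Rel (11.8), Relb (9.86), Nfkbie (4.89), Nfkbid (2.78) and Nfkbiz (1.75). The neighbours Nfkbib and Nfkb2 overlapped between libraries, and the other neighbours did not. In IL-4+CGRP the levels were Nfkb1 55.0, Rela 42.0, Nfkbia 23.1, Nfkb2 22.3, Nfkbib 21.4, Rel 12.8, Relb 11.2, Nfkbie 5.56, Nfkbid 2.34 and Nfkbiz 1.63 CPM per kilobase. There Nfkbia, Nfkb2 and Nfkbib could not be ordered beyond their spread, nor could Rel and Relb, or Nfkbid and Nfkbiz. Nfkb1 and Rela, the genes of the most common dimer, made up 39.2% ± 0.76 and 29.4% ± 1.57 of the summed subunit level in IL-4 and 38.4% ± 0.78 and 29.3% ± 0.81 in IL-4+CGRP (SD, n = 3). Nfkbia and Nfkbib made up 43.4% ± 1.65 and 39.2% ± 1.296 of the summed inhibitor level in IL-4, and 42.7% ± 0.90 and 39.6% ± 1.82 in IL-4+CGRP (SD, n = 3).

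Added together, the 5 subunits measured 134, 136 and 134 CPM per kilobase in IL-4 and 144, 141 and 145 in IL-4+CGRP, so that the groups did not overlap. The 5 inhibitors measured 54.2, 54.8 and 53.5 in IL-4 and 53.3, 54.9 and 53.8 in IL-4+CGRP, which overlapped. The ratio of inhibitors to subunits was 0.405, 0.405 and 0.400 in IL-4 and 0.370, 0.390 and 0.371 in IL-4+CGRP, lower in every IL-4+CGRP library. That separation depends on counting the nuclear IkB genes Nfkbid and Nfkbiz. The classical inhibitors alone (Nfkbia, Nfkbib and Nfkbie) measured 50.5, 49.6 and 48.9 in IL-4 and 49.1, 51.8 and 49.2 in IL-4+CGRP. Relative to the subunits, their level in IL-4+CGRP replicate 2 fell within the range of IL-4, so the groups overlapped. On the log2 scale the subunit sum was 0.09 higher and the difference of the inhibitor sum was -0.0048; the latter changed sign to 0.02 with library totals alone, and also without IL-4 replicate 2 or IL-4+CGRP replicate 1. The subunit sum had the smallest shift in IL-4+CGRP replicate 2, and without that library it was 0.11 higher. These sums are given as values with no test, and they count RNA per length, not protein.

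**Figure D3:**
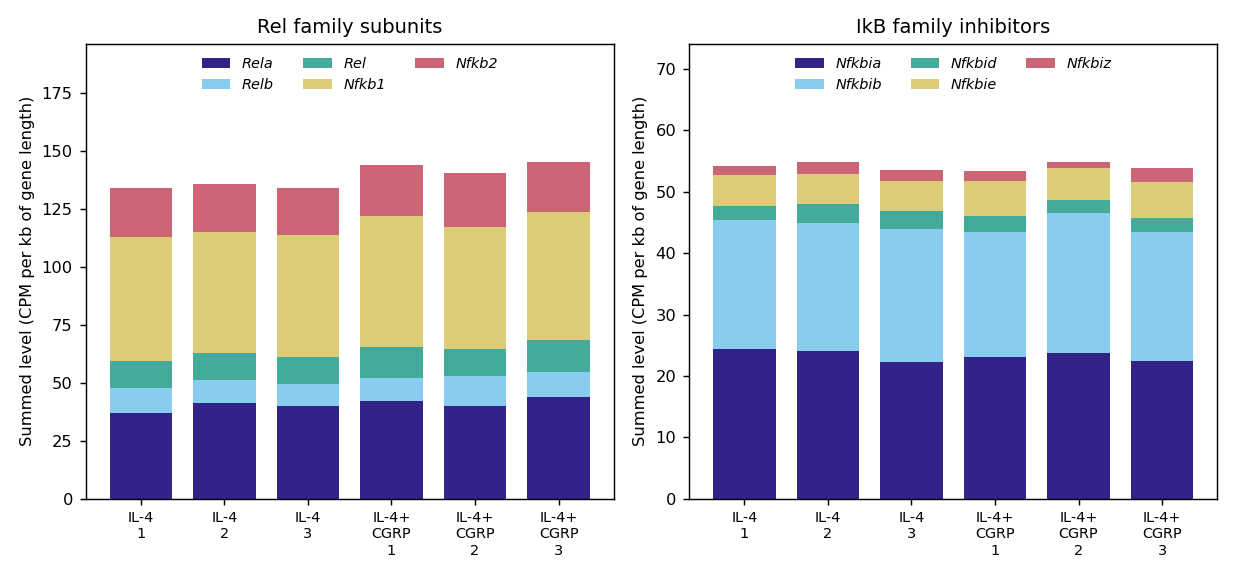
Level per kilobase of gene length of the 5 subunits (left) and the 5 inhibitors (right), stacked by library in CPM per kilobase from 0. The subunit stack is 134 to 136 in IL-4 and 141 to 145 in IL-4+CGRP, while the inhibitor stack stays between 53.3 and 54.9 in all 6 libraries.

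The machinery that acts on these proteins was described with a list of 42 IkB kinases, adaptors, ubiquitin ligases and related regulators, all tested. Of these 42, 1 fell and 0 rose (2.38%, against 3.85% of all tested genes), and the median log2 fold change was 0.04. At an unadjusted p under 0.05, 10 of the 42 passed, against 15.8% of all tested genes. Groups did not overlap for 14 of the 42 (10 as higher and 4 as lower), against 21.0% of all tested genes, 11.1% as higher and 9.92% as lower.

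The catalytic and regulatory subunits of IkB kinase itself did not pass: Chuk measured 54.0 ± 2.22 and 55.4 ± 3.61 CPM, Ikbkb 119.7 ± 3.49 and 120.7 ± 9.03 CPM, and Ikbkg 60.9 ± 2.76 and 60.2 ± 1.22 CPM in IL-4 and IL-4+CGRP (SD, n = 3). Their edgeR adjusted p-values ran from 0.83 to 0.95. The 3 genes nearest to the threshold without passing it were Birc3, Bcl3 and Map3k14. Birc3, a ubiquitin ligase that restrains the noncanonical kinase, measured 62.9, 62.9 and 64.6 CPM in IL-4 and 72.5, 70.7 and 79.4 CPM in IL-4+CGRP (edgeR adjusted p = 0.060). Bcl3, a nuclear IkB protein outside the 10 members, measured 17.8, 17.6 and 15.5 CPM in IL-4 and 19.5, 21.5 and 22.8 CPM in IL-4+CGRP (edgeR adjusted p = 0.086). Map3k14, the kinase that starts processing of Nfkb2, measured 40.6, 46.2 and 44.04 CPM in IL-4 and 49.6, 52.8 and 50.5 CPM in IL-4+CGRP (edgeR adjusted p = 0.095). The groups did not overlap for any of the 3. Birc3 passed as higher under upper quartile factors (edgeR adjusted p = 0.047), library totals alone (0.043), no count filter (0.015) and without IL-4+CGRP replicate 2 (0.0050); Bcl3 and Map3k14 passed without a count filter (edgeR adjusted p = 0.021 and 0.025) and without that library (0.039 and 0.046). Without both that library and IL-4 replicate 1, Birc3 (0.0016) and Bcl3 (0.014) passed and Map3k14 did not (0.076). Without IL-4+CGRP replicate 2 the list had 8 genes higher and 3 lower, in a fit that called 13.8% of all tested genes.

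**Figure D4:**
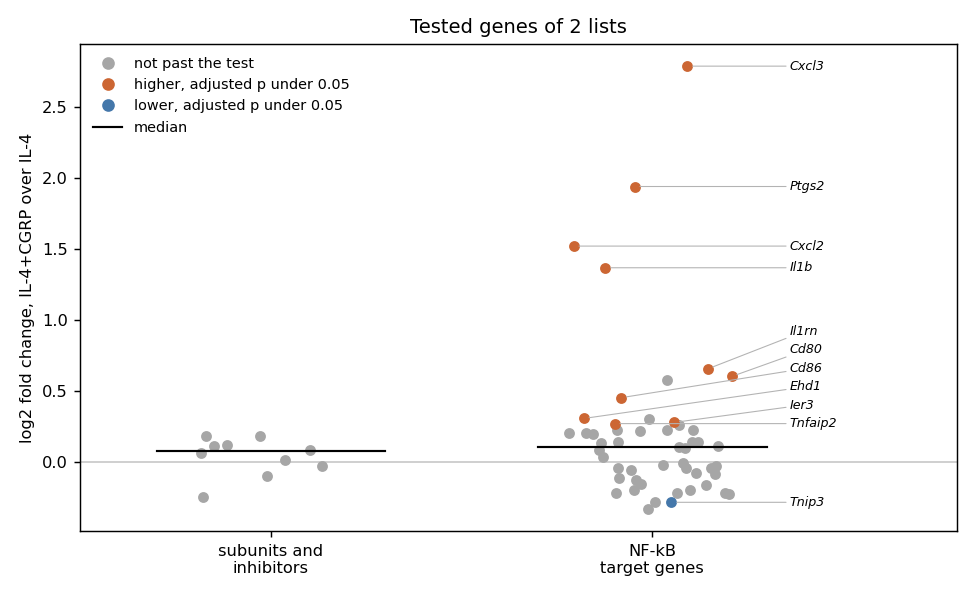
Log2 fold change (IL-4+CGRP over IL-4) of the tested genes of 2 lists; coloured points passed the edgeR test at an adjusted p under 0.05 and bars are medians. None of the 10 subunits and inhibitors is coloured, and 11 of 51 target genes are coloured. The target list was written with earlier results of these data known, so its coloured share is not independent evidence.

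Genes that NF-kB dimers are known to transcribe formed the third list, written with earlier results of these data known. Neither its direction nor its share of called genes is therefore independent evidence. Of 56 listed genes 51 were tested: 10 rose, 1 fell and 40 did not pass (21.6%, against 3.85% of all tested genes), with a median log2 fold change of 0.11 against -0.0042 over all tested genes. Those that rose were the inflammatory mediators Ptgs2, Il1b, Cxcl2 and Cxcl3, the costimulatory ligands Cd80 and Cd86, the interleukin-1 receptor antagonist Il1rn, and Tnfaip2, Ier3 and Ehd1. Their log2 fold changes were 2.79 for Cxcl3, 1.94 for Ptgs2, 1.52 for Cxcl2, 1.37 for Il1b, 0.66 for Il1rn, 0.60 for Cd80, 0.45 for Cd86, 0.31 for Ehd1, 0.28 for Ier3 and 0.27 for Tnfaip2. Cxcl3, Cxcl2 and Il1b had low counts, with means under 50, so the filter at a mean count of 50 left them out. The SEs of these log2 fold changes were 0.57 for Cxcl3, 0.38 for Cxcl2 and 0.26 for Il1b. With the replicate number as a block the calls of Cxcl2 (edgeR adjusted p = 0.11), Cxcl3 (0.086), Ier3 (0.073) and Tnfaip2 (0.055) ended. That of Cxcl2 also ended under DESeq2 (0.087), limma-voom (0.061) and the fit that was not robust (0.066). Calls of Cxcl2 and Cd80 ended with each library left out except IL-4+CGRP replicate 2. Cxcl3 lost its call when replicate 1 or replicate 3 of either group was omitted. Ier3 lost it when any IL-4 library, or replicate 1 of IL-4+CGRP, was omitted. Il1b and Tnfaip2 lost theirs when replicate 2 or 3 of IL-4 was omitted, and Il1b also when replicate 1 of IL-4+CGRP was. Ehd1, which encodes an endocytic recycling protein, measured 77.7, 68.5 and 72.1 CPM in IL-4 and 85.4, 96.4 and 88.03 CPM in IL-4+CGRP. It was 1.24-fold higher, with an edgeR adjusted p = 0.022, a call that ended without IL-4 replicate 2 (0.15) or 3 (0.13) and with the replicate number as a block (0.11). The gene that fell was Tnip3, whose protein binds the ubiquitin-editing brake on NF-kB signalling; it measured 70.2, 63.3 and 63.5 CPM in IL-4 and 49.8, 57.6 and 54.2 CPM in IL-4+CGRP. It was 1.22-fold lower with an edgeR adjusted p = 0.042. The Tnip3 call ended in 10 of 16 alternatives, among them each omission of a library except that of IL-4+CGRP replicate 2. The calls of Ptgs2, Il1rn and Cd86 held in all 16. The number of target genes called was 6, 4 and 3 without IL-4 replicates 1, 2 and 3, and 5, 20 and 7 without IL-4+CGRP replicates 1, 2 and 3.

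Other standard targets did not pass. Nfkbia, which is itself a target, and the inflammatory cytokine Tnf had log2 fold changes of -0.03 ± 0.06 and -0.08 ± 0.10 (SE). Tnfaip3, the ubiquitin-editing brake, measured 59.6 ± 3.57 and 58.7 ± 1.94 CPM, and the adhesion molecule Icam1 77.2 ± 0.89 and 78.8 ± 1.06 CPM (SD, n = 3). Slc7a2, an arginine transporter, was the target nearest to the threshold without passing it, at 234 ± 1.51 and 268 ± 12.2 CPM (SD, n = 3; edgeR adjusted p = 0.0502), followed by Birc3 and Ccl22. Slc7a2 passed as higher in 7 of 16 alternatives, with no count filter (0.017) or one at a mean count of 50 (0.046), when scaled by library totals alone (0.037), upper quartiles (0.042) or the size factors of DESeq2 (0.049), without IL-4+CGRP replicate 2 (9.1e-04) and without both that library and IL-4 replicate 1 (2.3e-05). The chemokine Ccl22 had lower values in every IL-4+CGRP library, at 28.2, 29.3 and 27.8 CPM against 32.2, 34.5 and 33.2 CPM in IL-4 (edgeR adjusted p = 0.092). It passed as lower without IL-4+CGRP replicate 2 (edgeR adjusted p = 0.023) and without both libraries (0.0069). Targets that IkB zeta is known for were low: Lcn2 measured 1.77 ± 0.14 and 1.58 ± 0.24 CPM and Il12b 0.90 ± 0.16 and 1.05 ± 0.14 CPM (SD, n = 3), and neither passed. Il6, Il23a, Cxcl1, Csf2 and Csf3 had too few counts to be tested.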

How the data were processed

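Per the labels' protocols, TRIzol RNA of quality number 6.5 or more (1 µg) went into a stranded mRNA kit. The authors deposited estimated counts per gene that were not normalized, made with fastp, HISAT2 and StringTie on build GRCm39, per the submitters' processing notes. Versions, annotation, counting step and strand setting: not given in the sources used here. Between 23.3% and 26.6% of values above 0 were not whole (tolerance 1e-06), so counts were rounded. How the deposited gene length (bases) was defined is not given in the sources used here. No unassigned column of per-sample values was used. The labels leave the CGRP concentration ambiguous, and it is left out.

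Genes were filtered with filterByExpr, scaled with TMM factors (0.985 to 1.016) and tested, two-sided and with no covariates, by the robust quasi-likelihood F test of edgeR 4.0.16 (R 4.3.3), adjusted over 13260 genes. Each SE is the log2 change over the root of its F statistic, and 95% intervals use the fit's degrees of freedom. Alternatives used other scalings, filters (none, or mean counts from 50 up), limma-voom (limma 3.58.1), DESeq2 1.42.0, a non-robust fit, a block for replicate number, and fewer libraries. The scripts were tested on simulated data. The members, lists, motifs and alternatives were chosen with earlier results of these data known. Genes named are all members, list genes past the threshold (at most 12 a list, by smallest p) and the 3 of each list with the smallest p among those that did not pass; Chuk, Ikbkb, Ikbkg, Tnf, Tnfaip3, Icam1, Lcn2 and Il12b were added after their values were seen. A gene that the rule names is not reported here. The total depth limits precision most for Nfkbid and Nfkbiz, which had 88 to 207 counts a library.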

Additional observations from a re-analysis of the deposited data

How the results depend on the processing

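Leaving out 1 library at a time gave 0 to 1 members called (1, Rel, without IL-4+CGRP replicate 2), 1 to 11 of the kinases and adaptors, 3 to 20 target genes and 222 to 1865 genes in all. Without both IL-4+CGRP replicate 2 and IL-4 replicate 1 the counts were 1, 9, 25 and 2253. Kinase and adaptor calls numbered 2 under upper quartile factors, 2 under library totals alone and 5 with no count filter, where 1018 genes were called in all. Nfkbib ran from -0.039 to 0.040 and Nfkbiz from -0.41 to 0.13 (log2) when 1 library was left out, and they stood at -0.043 and 0.023 without both libraries. The summed subunit level was 0.12 higher on the log2 scale with library totals alone. No other member changed sign in any of the 16 alternatives. The cause of these shifts was not tested. Leaving out libraries also lowers the number of samples.

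Deviations of same-numbered libraries correlated at -0.19, -0.18 and 0.13, and not every library correlated best with its own number. With 3 libraries in each group, such correlations cannot show whether the replicate numbers pair the libraries. With the replicate number as a block, 0 members, 1 kinase or adaptor gene, 5 target genes and 262 genes in all were called. The split of 307 higher and 204 lower calls under TMM became 354 and 143 with library totals alone, where the median of all genes moved from -0.0042 to 0.023.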

Other observations

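The kB motifs of the member promoters are carried by many other expressed genes. Of 9709 tested genes with a promoter window, 206 held the long kB motif (10 letters), of which 9 rose and 7 fell (7.77%, against 3.92% of all tested genes with a window), with a median log2 fold change of -0.0058. Of 828 tested genes with the short kB motif, GGGNNTTCC, 16 rose and 11 fell (3.26%), with a median of -0.013. Of the 973 with either kB motif, 22 rose and 16 fell (3.91%, near the 3.92% of all tested genes with a window), with a median of -0.011. Of 341 tested genes with TGACGTCA, 3 rose and 7 fell (2.93%), with a median of -0.04, against -0.0092 for all tested genes with a window. These counts are a description without a test, and the promoter windows are of another build than the deposited counts.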
